A study of Arabidopsis thaliana with 18 samples.

Results

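The 2 peak lists compared here show where FUL held DNA when it was the only MADS-domain protein in the mixture, and where it held DNA when AG and SEP3 were made beside it. The lists hold 7008 nuclear peaks between them, 2572 in the FUL list and 4436 in the FUL-AG-SEP3 list, of 16105 peaks in all 5 lists of the series. A peak counted as shared when it overlapped a peak of the other list by at least 1 bp. In this way 1649 FUL peaks were shared and 923 were FUL-only, while 1646 FUL-AG-SEP3 peaks were shared and 2790 were FUL-AG-SEP3-only. The lists were made by DAP-seq, in which naked, fragmented genomic DNA is offered to a tagged protein made in vitro and the fragments it holds are sequenced. The DNA came from Col-0 leaves of Arabidopsis thaliana seedlings grown for 2 weeks, and every mixture received 400 ng of that library. Each condition had 3 replicates, namely FUL, FUL-AG-SEP3, FUL-AG, FUL-SEP3, FUL-SOC1 and Input. All proteins came from a wheat germ extract and only FUL carried the 3×FLAG tag, so every fragment was recovered through FUL, with or without a partner. The plasmids of a mixture were combined in equal molar amounts up to a fixed total, so the FUL-AG-SEP3 mixture held less FUL template than the FUL mixture, and it could contain FUL homodimers and FUL-AG or FUL-SEP3 dimers as well as larger complexes. Chromatin is absent from the assay.

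FUL (FRUITFULL) is a MADS-domain transcription factor of the AP1/FUL lineage, known for promoting flowering and for the growth of the fruit valves. AG specifies stamens and carpels and ends the floral meristem, and SEP3 is the partner that joins many MADS-domain dimers into tetramers. MADS-domain dimers bind the CArG-box, a palindromic site with a pair of cytosines, 6 bases of A or T and a pair of guanines. The run of A and T bases shapes the minor groove of the DNA, and A- or T-rich bases next to the box can add to binding.

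The boxes under the highest peaks of each class differed in where they departed from that pattern. Each line gives 30 bases of the plus strand of TAIR10 around the best box of a peak, with the 10 bases of the box in capitals and 10 bases of flank on either side in lower case. The best box is the one with the fewest mismatches in the 200 bp around the summit, the nearest to the summit where several tie. Shown first are the 8 FUL-only peaks of highest fold enrichment, named by the gene with the nearest transcription start.
AT4G11030, chr4:6737951-6737980: ttgtgttattCCAAATTTAGaataacacac
AT1G04987, chr1:4457400-4457429: tctgtggctaCTATATATGGagtttatcag
BEE3, chr1:27760360-27760389: gctcaagtttCCATAAATGGaaatatttcg
NAGS2, chr4:17699338-17699367: cagcccaatcCCATTTTAAGtatgtccaga
AT3G14380, chr3:4803970-4803999: atttttttttCCAAATTTGGtattacgtac
AT3G28770, chr3:10798822-10798851: catgataattCCATTAATAGcaagatagtg
AT3G49220, chr3:18246099-18246128: cgatttgataCTATTTTTGGtaaaagaatc
PCR1, chr1:5134681-5134710: ttaagagataCTATATATGGatcacatact

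Of these 8 boxes, 2 matched exactly and 6 had a single mismatch, which in all 6 lay at the second base from an edge, position 2 or 9 of the box. The 8 FUL-AG-SEP3-only peaks of highest fold enrichment follow.
AT2G23480, chr2:10002794-10002823: cgaggacatcGCAAATGTGGtaagtattcc
AT1G17790, chr1:6125832-6125861: aatgaatactCCGAATTTGGtatgatgttg
RLP26, chr2:14022257-14022286: caagttccttCCTCAATTAGtaaccttatc
RLP20, chr2:10827136-10827165: ttatctctttCCTTTAATAGcttccttggt
AT5G09835, chr5:26805659-26805688: tatatcgactCCCATAATGGcaatcttagc
AT3G46770, chr3:17223818-17223847: atgagggattACTATTTACGtccaacattg
AT3G30750, chr3:12418396-12418425: ggctgagttaTCTAAATAGGgaagtcgaaa
AT1G36070, chr1:13466973-13467002: gtctcggaccCCTAAATAGTaaaaacaatc

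None of these 8 was exact. In 5 the best box had a single mismatch, at the outer base (position 1 or 10) in 2, at position 2 or 9 in 1 and in the middle (positions 3 to 8) in 2, and the remaining 3 boxes had 2 mismatches. For comparison, 3 shared sites are shown, those of CKX1, of SAUR10 (AT2G18010) and of AGL18, a MADS-box gene. They were chosen by hand, and SAUR10 and AGL18 are not among the 8 highest shared sites. Their boxes therefore do not stand for the shared class, in which 22.7% of the FUL peaks held an exact box.
CKX1, chr2:17311712-17311741: gtcttcttacCCTAAATAGTaaattgacaa
SAUR10, chr2:7832511-7832540: tcaataatgtCCAAATATGGtaacaaaata
AGL18, chr3:21233610-21233639: agcaaagccaCCAAATATGGaaaattgcta

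Most of the FUL list was contained in the FUL-AG-SEP3 list, and the reverse was not so. Of the FUL peaks, 64.1% (95% Wilson interval 62.2% to 65.9%) had a FUL-AG-SEP3 partner, whereas 37.1% (35.7% to 38.5%) of the FUL-AG-SEP3 peaks had a FUL partner. The FUL-AG-SEP3 list is the longer one, which by itself makes the first share the larger. With the 1000 nuclear peaks of smallest p from each list, 445 of each were shared (44.5%). All 5 lists were called against the Input, each from 3 replicates combined, so a peak has no replicate values and no standard deviation. The intervals and the tests below therefore cover counting over peaks, while how far replicates differed is unknown here. The lists do not state their read numbers, and a site absent from a list is a site that was not called, which is not the same as a site without binding.

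Sharing depended on how high a peak stood in its own list. The fold enrichment gives the summit's read pileup, replicates pooled, relative to local background, and since the lists differ in scale, each peak was also given its percentile, the share of its own nuclear list at or below its fold. The FUL list had a median fold of 3.96 (1.67 to 14.7) and the FUL-AG-SEP3 list one of 3.13 (1.57 to 9.70). All 100 highest FUL peaks were shared, as were 92 of the 100 highest FUL-AG-SEP3 peaks. Above percentile 90 of the FUL list, 97.3% (94.6% to 98.7%) of 260 peaks had a partner, against 51.4% (45.2% to 57.7%) of 243 at or below percentile 10. In the FUL-AG-SEP3 list the corresponding shares were 75.2% (71.0% to 79.0%) of 444 and 15.1% (12.1% to 18.8%) of 443. Thus 110 of the 2790 FUL-AG-SEP3-only peaks (3.94%, 3.28% to 4.73%) stood above percentile 90 of their list, and only 7 of the 923 FUL-only peaks (0.758%, 0.368% to 1.56%) did.

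**Figure D1:**
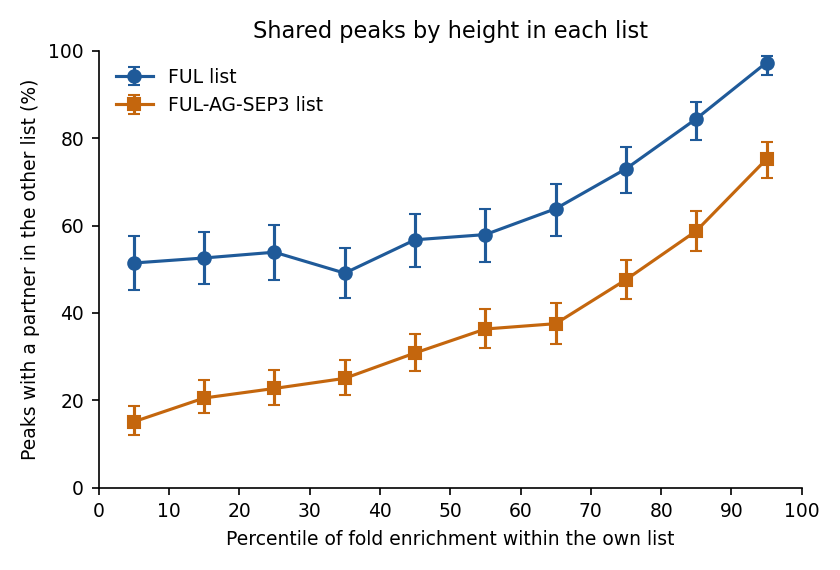
Percent of peaks with a partner in the other list (vertical axis) by percentile of fold enrichment within the own list (horizontal axis, bins of 10), for the FUL list (circles) and the FUL-AG-SEP3 list (squares), with 95% Wilson intervals over peaks. The FUL curve runs from 51.4% in the lowest bin to 97.3% in the highest and the FUL-AG-SEP3 curve from 15.1% to 75.2%.

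The FUL-only peaks had a median fold of 3.59 (percentile 38.8) against 4.32 (percentile 60.9) for the shared FUL peaks. The FUL-AG-SEP3-only peaks had a median fold of 2.98 (percentile 39.8) against 3.50 (percentile 70.4) for their shared peaks. Peaks found in 1 list were also narrower, with median widths of 236 bp against 290 bp in the FUL list and 260 bp against 298 bp in the FUL-AG-SEP3 list. The division was not a matter of a few bases. The smallest overlap of a shared pair was 65 bp and the next 86 bp, while the closest FUL-only peak lay 56 bp from a FUL-AG-SEP3 peak and the next 141 bp. Only 79 FUL-only peaks (8.56%) and 146 FUL-AG-SEP3-only peaks (5.23%) had a peak of the other list within 1000 bp.

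The CArG-box marked all classes, most often the shared peaks. An exact box stood in the 200 bp around the summit of 22.7% of the shared FUL peaks (375 of 1649), 16.1% of the FUL-only peaks (149 of 923) and 9.57% of the FUL-AG-SEP3-only peaks (267 of 2790). Windows of the same size 1000 bp to the right of the same summits held an exact box in 0.667%, 1.30% and 1.04% of cases, and 1.23% of the 594683 windows of 200 bp that tile the genome did. The FUL-only peaks thus held an exact box more often than the FUL-AG-SEP3-only peaks, by 6.57 percentage points (two-sided Fisher's exact test, odds ratio 1.82, Benjamini-Hochberg adjusted p = 2.843e-07 over 27 tests), and less often than the shared FUL peaks (odds ratio 0.654, same exact test, adjusted p = 1.127e-04). The 2 classes also differed in call strength, with a median −log10 p of 10.84 for FUL-only and 7.935 for FUL-AG-SEP3-only peaks. Among peaks with a −log10 q of at least 4, the first difference was 6.10 points (Fisher's exact test, adjusted p = 9.281e-06). Within the FUL-AG-SEP3 list, the exact box was the more frequent in shared peaks, with 22.2% against 9.57% (same exact test, odds ratio for FUL-AG-SEP3-only 0.370, adjusted p = 8.981e-30). Counting boxes with at most 1 mismatch, 66.7% (63.6% to 69.7%) of the FUL-only and 63.0% (61.2% to 64.8%) of the FUL-AG-SEP3-only peaks had one, a difference that did not pass the threshold of 0.05 (same exact test, adjusted p = 0.0562) although it did in a 100 bp window, where it was 9.96 points (adjusted p = 3.007e-07). A second box with at most 2 mismatches was present in 91.0% of FUL-only and 91.1% of FUL-AG-SEP3-only windows (same exact test, adjusted p = 0.947), and in 61.7% and 65.0% of their control windows.

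The place of the mismatch separated the classes more than its presence. Among best boxes with a single mismatch, the mismatch lay at the second base from an edge in 63.6% (59.1% to 67.8%) of 467 FUL-only boxes, 56.9% (53.7% to 60.1%) of 914 in shared FUL peaks and 33.0% (30.7% to 35.4%) of 1491 FUL-AG-SEP3-only boxes. The outer base was mismatched in 22.9% (19.3% to 26.9%) of the FUL-only boxes and in 39.7% (37.3% to 42.2%) of the FUL-AG-SEP3-only boxes, and the middle in 13.5% (10.7% to 16.9%) and 27.3% (25.1% to 29.6%). In the control windows of the FUL-AG-SEP3-only peaks, 35.6% (31.9% to 39.5%) of 604 such boxes had the mismatch at the second base, 44.5% at the outer base and 19.9% in the middle. Of the 297 FUL-only boxes mismatched at the second base, 293 carried an A or a T there. Those boxes read as a cytosine, 7 bases of A or T and a pair of guanines, or the reverse complement. The same held for 508 of 520 such boxes in shared FUL peaks and 457 of 492 in FUL-AG-SEP3-only peaks. In the control windows of the FUL-only peaks it held for 54 of 64. The breakdown by place and base of the mismatch was chosen after the values were seen and was not tested. The difference in place was present among high and low peaks. Above the median fold of each list, the second base was mismatched in 67.3% (59.8% to 74.0%) of FUL-only and 34.4% (30.8% to 38.2%) of FUL-AG-SEP3-only single-mismatch boxes, and below it in 61.6% and 32.0%.

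**Figure D2:**
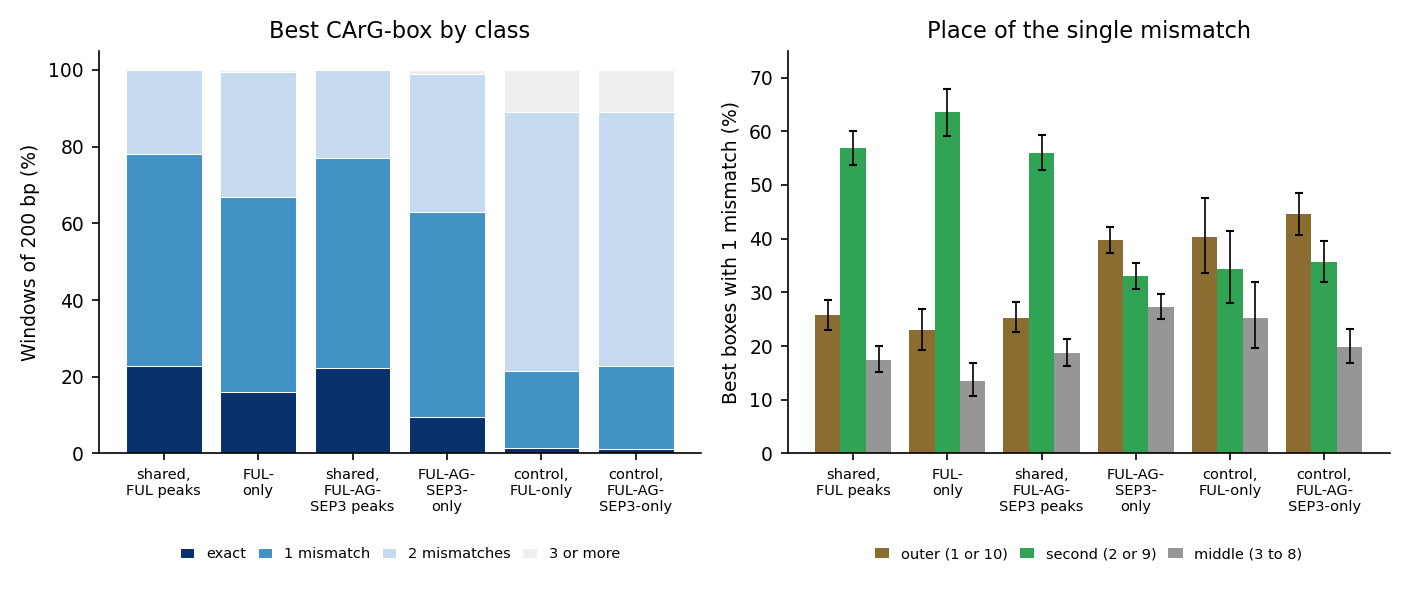
Left, percent of 200 bp windows (vertical axis) whose best CArG-box is exact or has 1, 2 or more mismatches, for the 4 classes of peaks and for control windows 1000 bp to the right of the FUL-only and FUL-AG-SEP3-only summits. Right, percent of single-mismatch boxes with the mismatch at the outer base, at the second base or in the middle, with 95% Wilson intervals. The second base leads in the shared and FUL-only classes (63.6% in FUL-only). At that base FUL-AG-SEP3-only boxes (33.0%) lie near their control windows (35.6%). Their middle mismatches are more frequent than in these controls (27.3% against 19.9%) and their outer ones less so (39.7% against 44.5%).

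The boxes that recurred most often were compared next. The box CCAAAAATAG, with its reverse complement CTATTTTTGG, was the most frequent best box of the FUL-only peaks, in 44 of 923 (4.77%), and occurred in 73 of 1649 shared FUL peaks (4.43%) but in 17 of 2790 FUL-AG-SEP3-only peaks (0.609%). The box CTATAAATAG, with its reverse complement CTATTTATAG, has 2 mismatches and was the best box of 29 FUL-only peaks (3.14%), 41 shared FUL peaks (2.49%) and 11 FUL-AG-SEP3-only peaks (0.394%). The exact box CCAAAAATGG was the commonest among shared FUL peaks (76, 4.61%) and came to 4.01% of FUL-only and 1.33% of FUL-AG-SEP3-only peaks. The box CCAAAAGAGG was the second most frequent box of the FUL-AG-SEP3-only peaks (34, 1.22%) and was found in 6 FUL-only peaks (0.650%), while shared FUL peaks held it in 26 cases (1.58%), a larger share than either. Anywhere in the window, a cytosine and a guanine enclosing 8 bases of A or T were present in 33.2% (30.2% to 36.3%) of FUL-only, 30.4% (28.3% to 32.7%) of shared FUL and 20.1% (18.7% to 21.6%) of FUL-AG-SEP3-only peaks, against 14.95% (12.8% to 17.4%) and 13.8% (12.6% to 15.1%) in the control windows of the FUL-only and FUL-AG-SEP3-only peaks and 13.4% of genome windows.

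The bases beside the box were richer in A and T in the FUL-only peaks. At least 5 of the 6 flanking bases, 3 on each side, were A or T in 59.3% (56.1% to 62.4%) of FUL-only and 50.5% (48.6% to 52.3%) of FUL-AG-SEP3-only best boxes (same exact test, adjusted p = 6.655e-06), and in 67.9% and 65.4% of the shared peaks of either list. The control windows of the FUL-only and FUL-AG-SEP3-only peaks gave 36.2% and 33.7%. Above the median fold of each list the shares were 69.4% and 53.1% (Fisher's exact test, adjusted p = 5.116e-07). For exact boxes alone, which do not depend on how mismatches were scored, the flanks passed in 69.1% (61.3% to 76.0%) of 149 FUL-only, 71.2% (66.4% to 75.6%) of 375 shared FUL and 52.8% (46.8% to 58.7%) of 267 FUL-AG-SEP3-only peaks. The whole window hardly differed in composition, with mean A and T shares of 65.7% in FUL-only and 64.8% in FUL-AG-SEP3-only peaks. At the second flanking base the A and T share was 80.9% for FUL-only and 77.4% for FUL-AG-SEP3-only boxes, against 64.5% and 65.3% at 10 bases from the box. At the fourth flanking base it was 66.0% and 66.9%, and at the sixth 74.6% and 68.9%. Inside the box, cytosine stood at position 2 in 65.3% of FUL-only and 76.9% of FUL-AG-SEP3-only boxes, and at position 1 in 84.4% and 77.8%.

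**Figure D3:**
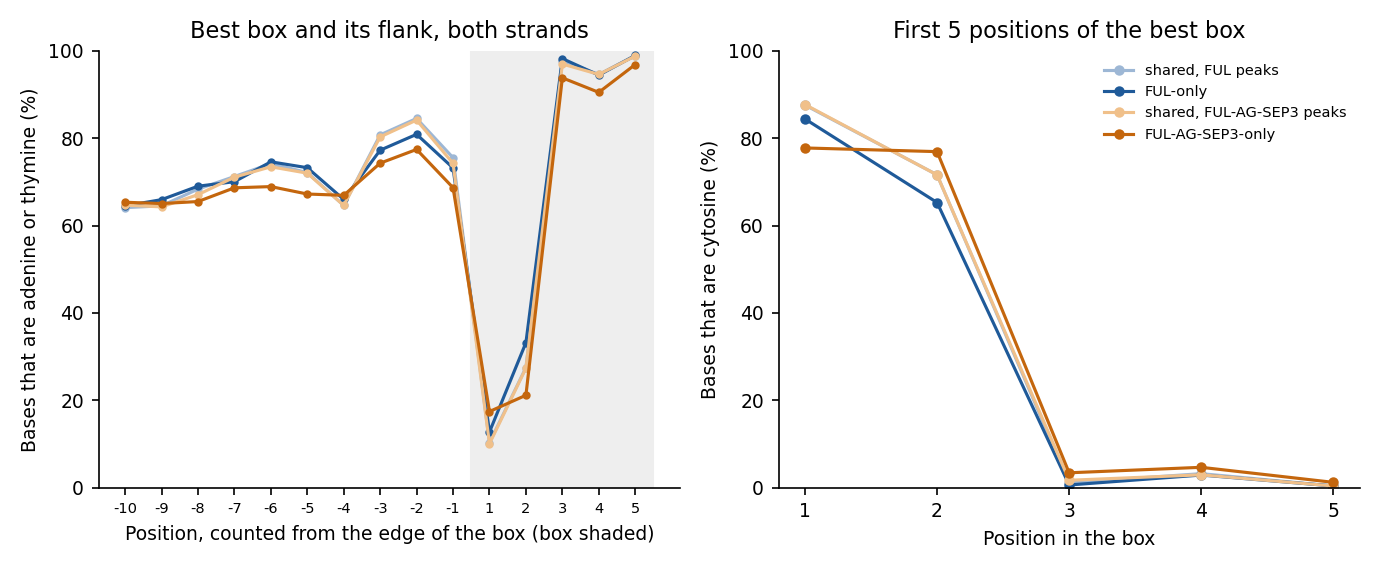
Left, percent of bases that are adenine or thymine (vertical axis) at the 10 flanking positions and the first 5 positions of the best box (horizontal axis, box shaded), averaged over both strands, for the 4 classes. Right, percent of cytosine at the first 5 box positions, where the lines of the shared classes nearly coincide. FUL-only boxes have fewer cytosines at position 2 (65.3%) than at position 1 (84.4%), and FUL-AG-SEP3-only boxes about as many at either (76.9% and 77.8%).

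The best box also sat closer to the summit in the FUL list. Among boxes with at most 1 mismatch, the median distance from box centre to summit was 11.5 bp in shared FUL peaks, 12.5 bp in FUL-only peaks, 13.5 bp in shared FUL-AG-SEP3 peaks and 20.5 bp in FUL-AG-SEP3-only peaks.

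FUL-only summits lay near a transcription start more often than FUL-AG-SEP3-only summits, whereas no difference was called for gene bodies. The summit fell in a gene body in 60.5% of FUL-only and 59.6% of FUL-AG-SEP3-only peaks (same exact test, adjusted p = 0.696). It lay within 1 kb of a transcription start in 56.4% (53.2% to 59.6%) and 50.2% (48.3% to 52.0%), a difference of 6.27 points (same exact test, adjusted p = 0.00162) that was not called when only peaks with a -log10 q of at least 4 were kept (4.08 points, adjusted p = 0.0511) or only those above the median fold (4.88 points, adjusted p = 0.211). Downstream of the start, within 1 kb, lay 30.8% of FUL-only and 23.7% of FUL-AG-SEP3-only summits, and upstream 25.7% and 26.5%. Summits in a 5′ UTR made up 8.99% (7.31% to 11.01%) of the FUL-only and 4.91% (4.17% to 5.78%) of the FUL-AG-SEP3-only peaks, where 4.92% of positions taken every 500 bp of the genome are 5′ UTR. Coding exons held 13.98% and 16.7% against 28.2% of the genome positions, and introns held 24.6% and 22.8% against 15.6%. A similar copy elsewhere in the genome (90% identity over 50% of the peak) existed for 13.4% (11.4% to 15.8%) of FUL-only peaks. For FUL-AG-SEP3-only peaks the share was 15.6% (14.3% to 17.0%). Whether reads were mapped to such copies was not tested.

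The other mixtures recovered the 2 classes in different proportions. A partner in the FUL-AG list was found for 91 FUL-only peaks (9.86%, 8.10% to 12.0%) and 1173 FUL-AG-SEP3-only peaks (42.0%, 40.2% to 43.9%; same exact test, odds ratio 0.151, adjusted p = 9.614e-82). In the FUL-SOC1 list the shares were 21.5% (18.9% to 24.2%) and 44.8% (43.0% to 46.7%; same exact test, adjusted p = 6.970e-38). The FUL-SEP3 list, the shortest with 1379 nuclear peaks, went the other way, with 13.5% (11.5% to 15.9%) of FUL-only and 8.89% (7.89% to 10%) of FUL-AG-SEP3-only peaks (same exact test, odds ratio 1.61, adjusted p = 1.344e-04). Shared FUL peaks had a partner in 66.8%, 61.9% and 55.4% of cases in the FUL-AG, FUL-SOC1 and FUL-SEP3 lists. All these lists contain tagged FUL and share the Input, so such partners are not independent of one another. No partner in any of the 3 other lists was found for 588 FUL-only peaks (63.7%, 60.6% to 66.7%) and 969 FUL-AG-SEP3-only peaks (34.7%, 33.0% to 36.5%). Those 588 peaks held an exact box in 15.99% of cases, close to the share of all FUL-only peaks, and the 969 in 6.71%, below the share of all FUL-AG-SEP3-only peaks.

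**Figure D4:**
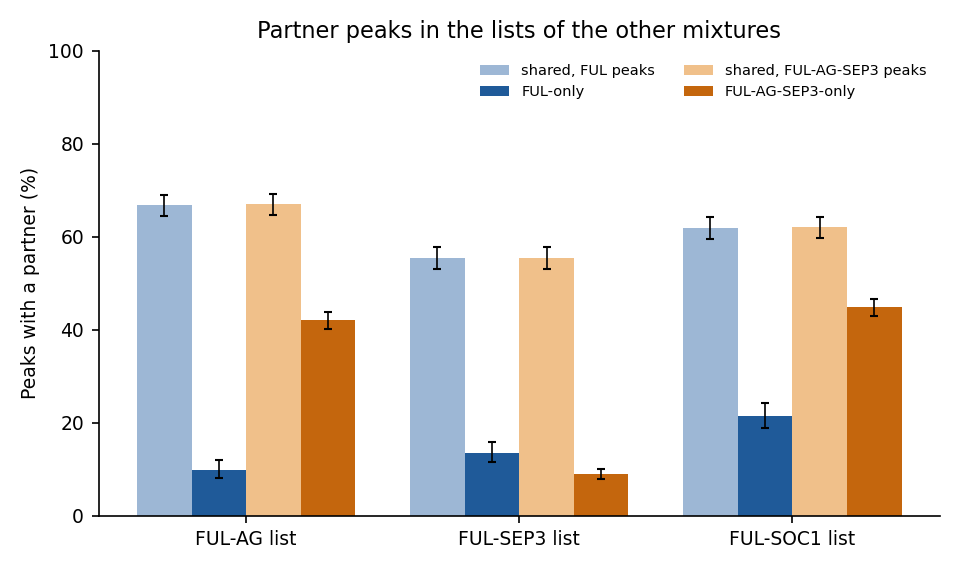
Percent of peaks of each class (bars, with 95% Wilson intervals over peaks) that overlap a peak of the FUL-AG, FUL-SEP3 or FUL-SOC1 list. FUL-AG-SEP3-only peaks exceed FUL-only peaks in the FUL-AG list (42.0% against 9.86%) and the FUL-SOC1 list (44.8% against 21.5%) and fall below them in the FUL-SEP3 list (8.89% against 13.5%).

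The highest peaks followed this division only in part. Most of the highest FUL-only peaks had a FUL-SEP3 partner, whereas in the whole class 13.5% had one and 21.5% had a FUL-SOC1 partner. The peak 104 bp upstream of AT4G11030, annotated as an AMP-dependent synthetase and ligase, led the class with a fold of 8.36 in the FUL list (percentile 95.2) and 4.18 in the FUL-SEP3 list. BEE3, a bHLH factor induced early by brassinosteroids, carried a FUL peak of fold 8.08 inside a coding exon and a FUL-SEP3 peak of 4.98. NAGS2, an enzyme of the arginine pathway, had folds of 8.08 and 3.39 in these lists, PCR1, a plant cadmium resistance protein, 6.81 and 3.42, and AT3G14380 8.002 and 4.28. Of the 8 peaks, 7 had a FUL-SEP3 partner, 2 a FUL-SOC1 partner and none a FUL-AG partner, and AT3G28770 (fold 7.12), a putative transmembrane protein, had no partner in any list. The highest FUL-AG-SEP3-only peaks, conversely, all 8 had a FUL-AG partner, 7 a FUL-SOC1 partner and 4 a FUL-SEP3 partner. In that whole class these shares were 42.0%, 44.8% and 8.89%. The first of these 8 peaks, in the pseudogene AT2G23480, had a fold of 6.54 in the FUL-AG-SEP3 list (percentile 99.7) and 6.83 in the FUL-AG list. This peak has a similar copy elsewhere in the genome. AT1G17790, a bromodomain protein, had folds of 5.80 and 5.77, and the receptor-like protein genes RLP26 and RLP20 had 5.73 and 4.90, and 5.70 and 4.73. The non-coding RNA gene AT5G09835 was lower in the FUL-AG-SEP3 list, with 5.55, than in the FUL-AG list, with 7.30. These peaks were picked by their fold, so the values describe them and were not tested. At RLP28, another gene of the family, a peak was present in both lists at folds of 4.79 in FUL and 4.82 in FUL-AG-SEP3, at percentiles of 70.4 and 95.2, and its best box CCTTTAATAG was the same 10 bases as at RLP20.

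Shared sites, which lie close together by definition, agreed loosely in height. Of 1643 pairs in which each peak had a single partner, 56.5% had summits within 20 bp and 93.4% within 100 bp. The pairs were defined by overlap, with a median overlap of 250 bp, so near summits were largely set by that rule. Across these pairs the folds had a Spearman rho of 0.454, and their log2 values a Pearson r of 0.502. This is a description over 1643 sites that share the tagged protein and the Input. CKX1, a cytokinin oxidase that degrades cytokinins, had the highest FUL peak of all, 2691 bp upstream of its start, with a fold of 14.7 in the FUL list and 6.74 (percentile 99.8) in the FUL-AG-SEP3 list. COAD, an enzyme of coenzyme A synthesis, had folds of 14.5 and 6.21 in an intron, and AT1G19330, annotated as a histone deacetylase complex subunit, 13.3 and 5.94. The peak near the pseudogene AT3G43526, which has a similar copy elsewhere in the genome, had 14.1 and 8.65. Other shared sites stood high in a single list, and the following were chosen after their values were seen. FUS3, a regulator of embryo maturation, had a FUL fold of 7.67 (percentile 93.4) in its 5′ UTR and a FUL-AG-SEP3 fold of 2.49 (percentile 11.02). EM1, a late embryogenesis protein of the seed, had 5.05 (percentile 73.6) and 2.08 (percentile 1.53). In the opposite direction, KCS6, an enzyme of cuticular wax synthesis, had a FUL fold of 2.52 (percentile 3.19) and a FUL-AG-SEP3 fold of 4.72 (percentile 94.6), and the heat shock factor HSFB3 had 2.70 (percentile 6.18) and 4.59 (percentile 93.4). Of the 253 pairs above percentile 90 in the FUL list, 16 stood at or below percentile 50 in the FUL-AG-SEP3 list. Of the 333 pairs above percentile 90 in the FUL-AG-SEP3 list, 62 stood at or below percentile 50 in the FUL list. The lists differ in length, and shared peaks as a class had a median percentile of 60.9 in FUL and 70.4 in FUL-AG-SEP3. These counts therefore partly reflect the ranking within each list.

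**Figure D5:**
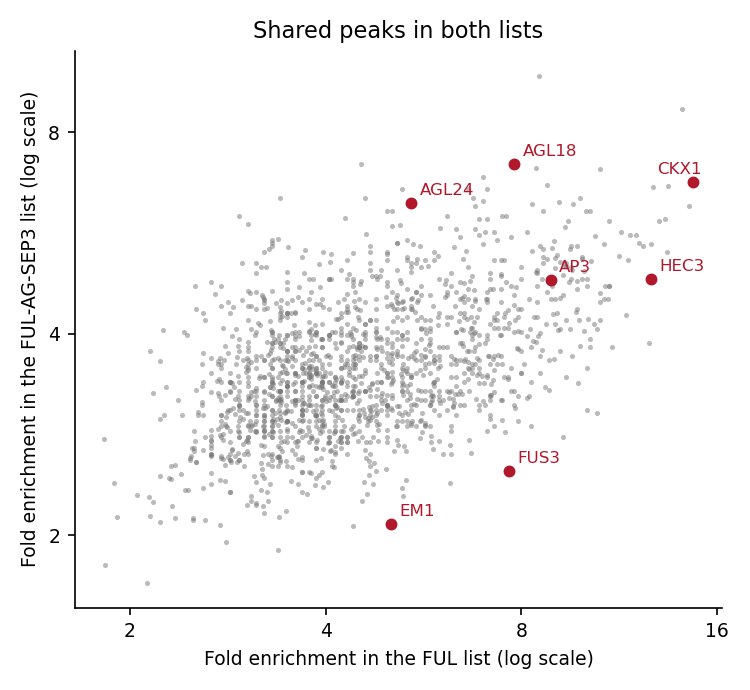
Fold enrichment of 1643 shared sites in the FUL list (horizontal axis, log scale) and the FUL-AG-SEP3 list (vertical axis, log scale), each point a pair of peaks, with named genes in red. CKX1 is highest in FUL (14.7), AGL18 is among the highest in FUL-AG-SEP3 (7.16), and FUS3 and EM1 lie low in FUL-AG-SEP3 (2.49 and 2.08).

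Genes of carpel development that the study followed were divided between the classes. HEC3, a bHLH factor for the transmitting tract and stigma, had a shared peak in its 3′ UTR with a fold of 12.7 in FUL (percentile 99.7) and 4.83 in FUL-AG-SEP3 (percentile 95.6), and of 5.47, 6.65 and 3.57 in FUL-AG, FUL-SEP3 and FUL-SOC1. The 200 bp window of the FUL summit held no exact box and 2 boxes with a single mismatch, with 29 bp between their ends, whose first bases lay at -93 and -54 bp from the summit.
HEC3, first box, chr5:3026284-3026313: cctaacaaacCCTTATTTCGtatccatttt
HEC3, second box, chr5:3026323-3026352: taaacactttCCATAATTGCaccattactc

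The related HEC1 had a shared peak 399 bp upstream of its start, with folds of 5.01 in FUL (percentile 73.4) and 3.62 in FUL-AG-SEP3 (percentile 74.4). HEC2 had one 3373 bp upstream, with 3.86 (percentile 48.2) and 3.50 (percentile 70.4). SPT, which acts with the HEC proteins, was the gene whose sites differed between the lists. It had a FUL-only peak 486 bp upstream of its start (fold 3.96, percentile 51.5), called in none of the other 4 lists. Another lay in an intron (fold 3.31, percentile 26.4), with partners in FUL-AG (3.45) and FUL-SOC1 (3.24). Neither had an exact box, as the best box had 2 mismatches upstream and 1 in the intron. In the FUL-AG-SEP3 list the only peak within 5 kb of SPT lay 4680 bp upstream (fold 3.15, percentile 50.7), over an exact box, with partners in FUL-AG (3.27) and FUL-SOC1 (2.63). SAUR10, a gene of the auxin-responsive SAUR family, had a shared peak 1252 bp upstream over an exact box. Its folds were 6.58 in FUL (percentile 87.9) and 5.31 in FUL-AG-SEP3 (percentile 97.9). GRP2B, a glycine-rich protein, had 4.51 in both, at percentiles of 65.1 in FUL and 92.7 in FUL-AG-SEP3.

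Genes were assigned to a class when they were the nearest transcription start, within 3 kb, of one of its peaks. Of the 37899 nuclear genes, non-coding genes and pseudogenes included, 3.87% received a shared, 2.20% a FUL-only and 6.39% a FUL-AG-SEP3-only peak. Genes with both a FUL-only and a FUL-AG-SEP3-only peak numbered 63, which is 7.56% of the genes of the former class and 2.60% of the latter. Those with the largest FUL-only folds, chosen after the values were seen, were HA3, a plasma membrane proton pump (6.80 in FUL and 2.91 at its FUL-AG-SEP3-only peak), and EXGT-A3, a cell wall xyloglucan transferase (6.71 and 2.77).

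The 5 gene lists used below were written with earlier results of these data known. Their shares are therefore descriptions and were not tested against those of all genes. MADS-box genes had peaks of every class. Of the 38 MADS-box genes of flowering and the flower, 10 had a shared peak (26.3%), 12 a FUL-AG-SEP3-only peak (31.6%) and 2 a FUL-only peak (5.26%), beside 3.87%, 6.39% and 2.20% of all nuclear genes, and 17 had none. The organ identity gene AP3 had a shared peak in its 5′ UTR, with folds of 8.87 in FUL and 4.81 in FUL-AG-SEP3. The flowering-time integrator SOC1 had one 49 bp upstream of its start, with 8.63 and 5.09. AGL18 had 7.81 and 7.16, and AGL19, an activator of flowering, 7.44 and 4.88 in an intron. AGL79 (6.34 and 4.61) and the flowering repressor SVP (5.97 and 3.66) followed. The percentiles in FUL and FUL-AG-SEP3 were 96.3 and 95.2 for AP3 and 84.25 and 76.1 for SVP. They were higher in FUL-AG-SEP3 for SOC1 (95.9 and 96.8), AGL18 (93.8 and 99.95), AGL19 (92.7 and 95.8) and AGL79 (86.6 and 93.8). Shared peaks as a class also ranked higher in FUL-AG-SEP3, with median percentiles of 60.9 in FUL and 70.4 in FUL-AG-SEP3. AGL24, a partner of SOC1 in flowering that was chosen after its values were seen, had an intronic shared peak with folds of 5.42 in FUL and 6.26 in FUL-AG-SEP3, at percentiles of 79.5 and 99.5. The FUL-AG-SEP3-only peaks of AG lay 902 bp (4.24, percentile 89.2) and 1593 bp (3.07, over an exact box) upstream of its start. Both had FUL-AG partners, of 3.24 and 3.56. AGL14 (4.72, percentile 94.6) in an intron, AGL16 (4.08), MAF2 (3.53), a repressor of flowering, AP1 (3.50), a floral meristem identity gene, and AGL15 (3.43) had FUL-AG-SEP3-only peaks too. The FUL-only peaks of this list were those of SHP2, a valve margin identity gene, 271 bp upstream of its start over an exact box (5.24, percentile 76.9, with a FUL-SEP3 partner of 3.39), and of AGL17 in an intron (4.58).

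Among the 34 carpel and fruit patterning genes, 3 had a shared peak (8.82%), 3 a FUL-only peak (8.82%) and 4 a FUL-AG-SEP3-only peak (11.8%). The shares over all nuclear genes were 3.87%, 2.20% and 6.39%. Besides SPT and BEE3, the FUL-only genes included JAG, a growth regulator of lateral organs, whose peak lay over an exact box (4.597, percentile 67.1) and had a partner in FUL-SEP3 alone (3.49). The FUL-AG-SEP3-only genes were ETT, an auxin response factor of gynoecium patterning (3.98, percentile 84.5), NGA2 (3.13), TCP15 (3.13) and IND, the valve margin bHLH factor (2.81). ARF4, which acts with ETT, had a shared intronic peak at folds of 4.46 in FUL and 4.35 in FUL-AG-SEP3.

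Of the 28 meristem, boundary and determinacy genes, 4 had a shared peak (14.3%) and 7 a FUL-AG-SEP3-only peak (25%). A FUL-only peak was found at 1, KNAT2 (3.57%, fold 4.51). Over all nuclear genes these shares were 3.87%, 6.39% and 2.20%. SUP, which limits the stamen whorl, had a shared peak downstream of its start that stood at percentile 65.5 in FUL (4.55) and 3.38 in FUL-AG-SEP3 (2.25), and a FUL-AG-SEP3-only peak 921 bp upstream over an exact box (4.03, percentile 85.8). RAX1 had both kinds as well, a shared peak at 6.71 in FUL and 3.92 in FUL-AG-SEP3 and a FUL-AG-SEP3-only peak at 4.35. Of the 29 flowering-time and phase-change genes, 6 had a shared peak (20.7%) and 5 a FUL-AG-SEP3-only peak (17.2%). A FUL-only peak was found at 1, FKF1 (3.45%, fold 2.67). These stand beside the same 3.87%, 6.39% and 2.20% of all nuclear genes. TOE1, an AP2-type repressor of flowering, had the highest shared one, at 7.35 in FUL and 4.19 in FUL-AG-SEP3, while its relatives SNZ (4.14) and SMZ (3.34) and the inflorescence gene TFL1 (3.76) had FUL-AG-SEP3-only peaks. Of the 31 cytokinin, gibberellin and auxin growth genes, 1 had a shared peak (3.23%), 2 a FUL-only peak (6.45%) and 1 a FUL-AG-SEP3-only peak (3.23%), beside 3.87%, 2.20% and 6.39% of all nuclear genes. CKX1 had the shared peak above and a FUL-AG-SEP3-only peak 1202 bp upstream (2.75), and PIN7 (3.41), an auxin efflux carrier, and GA3OX4 (3.19) had FUL-only peaks.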

How the data were processed

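DAP-seq was performed in 18 samples, 3 for each of 6 conditions, and the analysis used the peak lists of the 5 protein mixtures. Per the study's methods the authors used Trim Galore for trimming, HISAT2 for mapping to TAIR10, MACS2 for narrow peaks of each mixture, with its replicates merged and the Input as background, and ChIPseeker for annotation. Versions were not given in the sources used here. The deposited lists hold a fold enrichment (a ratio), −log10 p-values and q-values, and a score that the authors' caller derived from the q-value and that was not used. Peaks reached down to a −log10 q of 1.44 in the FUL list and of 1.30 in the FUL-AG-SEP3 list. No list holds read depth or replicate values.

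Chromosome lengths of the RefSeq TAIR10.1 reference, from which all sequences and genes were read, were checked against the peak coordinates. Mitochondrial peaks were left out. CArG-boxes were searched on both strands in the 200 bp around the summit. Similar copies were searched with BLAST 2.17.0 (90% identity over 50% of the peak). Shares were compared by two-sided Fisher's exact tests (SciPy 1.17.1), with Benjamini-Hochberg adjustment over 27 tests and a threshold of 0.05. The scripts were tested on simulated data. Alternatives were another overlap rule, stricter q-values, peaks above the median fold, other windows and protein-coding genes only.

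Most genes were named by rule: the genes the study followed, the 8 highest peaks of each class, and the members of 5 gene lists with a start within 3 kb of a summit, up to 6 per class by fold. Not every gene that the rule reaches is named, and those given from the meristem and flowering-time lists are a selection. Outside this rule, FUS3, EM1, KCS6, HSFB3, HA3, EXGT-A3 and AGL24 were chosen after their values were seen. The 160 list names matched by symbol (140) or synonym (20). The members and lists were chosen with earlier results of these data known.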

Additional observations from a re-analysis of the deposited data

Results flagged for a closer look

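Mitochondrial peaks entered no comparison and form a signal in data not analysed above. The FUL list held 18 of them, with folds of 1.67 to 4.28, and the FUL-AG-SEP3 list held 21, with folds of 1.43 to 3.36, and 11 of each list overlapped the other.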

How the results depend on the processing

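The share of FUL peaks with a partner, 64.1% as reported, was 61.1% where both peaks had to overlap by 50% of their length, 59.8% with summits within 100 bp, 60.8% with a −log10 q of at least 4 and 44.5% among the 1000 peaks of smallest p. For the FUL-AG-SEP3 list, 37.1% as reported, these settings gave 35.4%, 34.6%, 40.8% and 44.5%. Of 46 alternatives to tested differences, 37 kept direction and side of the threshold. The at most 1 mismatch difference passed with 50% overlap (4.30 points, adjusted p = 0.0211, Fisher's exact test) and in the 100 bp window (9.96 points), and the gene body difference passed with protein-coding genes only (3.92 points, adjusted p = 0.0495, Fisher's exact test). The start distance difference was lost with a −log10 q of at least 4 (4.08 points) and above the median fold (4.88 points). Neither uncalled difference that turned sign passed: the second box gave 0.308 points with 50% overlap and 3.60 points in the 100 bp window, and the gene body -0.0826 points with a −log10 q of at least 4 and -3.22 points above the median fold. The cause was not tested. Differences in exact boxes, A/T flanks and partners in the 3 other lists kept direction and call under every alternative run. No paired analysis was possible because each list pools its replicates and holds no value per replicate. For the same reason no replicate could be left out, and the precision set by sequencing depth is unknown.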
